A study of Mus musculus with 66 samples.

Results

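Days 7 and 8 after muscle injury were compared with days 5 and 6 in regenerating mouse gastrocnemius, a calf muscle, to ask which transcripts differ while new fibres grow. The group of days 7-8 held the 6 arrays labelled as taken 7, 7.5 and 8 d after an injection of cardiotoxin, and the group of days 5-6 held the 6 arrays labelled 5, 5.5 and 6 d, with 2 arrays at each time. All 12 were hybridised on the later version (Av2) of the Affymetrix murine array, and they are 12 of the 54 arrays of that version and of the 66 arrays of the whole series. No untreated muscle entered the comparison, and muscle of both groups had received the toxin. Cardiotoxin is a snake venom protein that kills muscle fibres and spares the satellite cells, the stem cells that form new ones. Strain, sex, age and dose are not given in the labels of these 12 samples, and whether both arrays of a time are from 1 animal is not stated, so p-values here measure the spread between these arrays only. The sample codes differ between times: both arrays carry the number 2 at 5 d and at 5.5 d. At 6, 7, 7.5 and 8 d the arrays carry the numbers 1 and 2. What the number stands for is not stated. In such whole tissue, fewer cells of a type and less RNA per cell cannot be told apart.

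In regenerating muscle, myoblasts that have divided stop, fuse into thin myotubes with central nuclei, and the myotubes then widen into fibres. Young fibres first make developmental forms of the contractile proteins, among them embryonic myosin heavy chain (Myh3), the embryonic light chain Myl4 and cardiac troponin T (Tnnt2), and later replace them with the adult forms. The basement membrane and connective tissue around the fibres are rebuilt over the same period, and macrophages that cleared the debris are still present.

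The arrays of the 2 groups were much alike. Median intensity lay between 332 and 362 on the 12 arrays, and 78.6% to 83.4% of the probe sets lay above a floor of 64.7, set at the 20th percentile of a typical array of this version. An array's correlation with arrays of the other group averaged 0.956 to 0.965 over log2 intensities, and with arrays of its own group at other times 0.954 to 0.967. The manufacturer's b-actin 3′ to 5′ signal ratio was 0.233 and 0.571 on the 5 d arrays, against 0.661 to 1.06 on the other 10. The Gapdh ratio did not set them apart, at 0.644 and 0.842, and was lowest on the first 8 d array at 0.385, against 0.565 to 0.842 on the other 11. The muscle label was borne out by adult fast muscle genes: Tnnt3, fast troponin T, chosen after its values were seen, read 24702 to 37805 (median 31432) on days 7-8, against 19380.2 to 33236 (median 27456) on days 5-6.

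Of the 11258 probe sets tested with limma, 4 passed an adjusted p of 0.05 between days 7-8 and days 5-6, which is 0.0355% of those tested, and 1 of them was higher (0.00888%) and 3 were lower (0.0266%) on days 7-8. They measured Dlk1, Myl4, Trip13 and Tead4. At an unadjusted p under 0.05, 1225 probe sets passed (10.9%). The middle 90% of log2 changes lay between -0.43 and 0.46 with a median of 0.00, and 51 probe sets (0.453%) differed by 2-fold or more. In 131 probe sets (1.16%) the 6 arrays of days 7-8 did not overlap with the 6 of days 5-6, 63 higher (0.56%) and 68 lower (0.604%).

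The number of calls depended on how the error was estimated. In the fit above it held the spread between the times of a group as well as the spread between the 2 arrays of a time. With 1 mean per time point and the error taken within time points of the 12 arrays, limma called 10. With 1 mean per time point and the error estimated within time points over all 52 arrays of injected muscle on this version, the same log2 changes gave 82 called probe sets (0.728%), of which 36 were higher (0.32%) and 46 lower (0.409%) on days 7-8. All 4 probe sets named above were among the 82. This second fit, called the 52-array fit below, leaves out the spread between times. Its p-values are too small where the times of a group differ, and where the 2 arrays of a time share an animal. The first fit counts the 2 arrays of a time as independent, and with time point as a random block limma called 2 probe sets. By the first fit's error, 36 of the genes named below by rule did not pass, and each is marked as passing in the 52-array fit only. Bub1 and Rpl8, mentioned below with their lists and outside that rule, also passed in the 52-array fit only. The 82 differed by 1.25-fold to 5.23-fold with a median of 1.56-fold, and in 33 of them the 12 arrays of the comparison did not overlap between groups.

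The calls of the 52-array fit rested to a large part on the 5 d arrays, the 2 with the low b-actin ratio and the earliest of the comparison. In fits chosen after seeing the data, leaving them out gave 19 called probe sets (10 higher and 9 lower), of which 16 were among the 82, and 13 of the 40 named genes that had passed still did. Leaving out 5 d also brings the groups closer in time and leaves fewer earlier arrays. In 76 of the 82 the 4.5 d mean lay on the days 5-6 side of the days 7-8 mean (log2 scale). In all 82 the 8.5 d mean lay on the days 7-8 side of the days 5-6 mean. Why calls were lost without the 5 d arrays was not tested. Without the second 7 d array, which is high in neutrophil and slow muscle genes, the 52-array fit called 56, of which 45 were among the 82. Without both 5.5 d arrays it called 138, of which 67 were. The 12 named genes that passed in all 3 of these fits were Bex1, Dlk1, Exosc8, Fgfr4, Kcne1l, Krt18, Krt8, Ltbp4, Matn4, Tead4, Tnnt2 and Trip13. Myl4 passed in none of them, with adjusted p of 0.16 without 5 d, 0.085 without 5.5 d and 0.084 without the second 7 d array.

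Myl4, the essential myosin light chain of embryonic muscle and of the atrium, fell on days 7-8. Its brighter probe set read 7787 to 9159.8 (median 8912) on days 7-8, against 14714 to 18395 (median 16108) on days 5-6. Every array of days 7-8 lay below every array of days 5-6, with means of 8723 ± 518 on days 7-8 and 16281 ± 1506 on days 5-6 (SD, n = 6 each). The log2 change was -0.90 ± 0.09 (limma, adjusted p = 0.0033), a 1.86-fold difference, with an adjusted p of 0.034 in the 52-array fit. By time the means ran 14841 at 4.5 d, 15785 at 5 d, 17956 at 5.5 d, 15102 at 6 d, 11565 at 6.5 d, 8926 at 7 d, 9099.7 at 7.5 d, 8144 at 8 d and 7932 at 8.5 d, so the drop lay between 6 and 7 d. A second probe set for Myl4 did not show it, with a log2 change of 0.15 (limma, adjusted p = 0.74). Without both 5.5 d arrays the adjusted p of the brighter probe set was 0.051.

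Trip13, an ATPase of the spindle checkpoint and of meiotic recombination, also fell. It read 16.1 to 149.8 (median 79.2) on days 7-8, against 257 to 296 (median 274) on days 5-6. The groups did not overlap, and 2 of the 6 arrays of days 7-8, both at 7.5 d, lay below the floor, so the log2 change of -1.65 ± 0.20 is a lower bound in size (limma, adjusted p = 0.0075). The 6.5 d arrays, which entered neither group, averaged 76.5. Without both 5 d arrays the adjusted p was 0.07 and without both 5.5 d arrays 0.051. With the floor set to 32.3 the log2 change was -1.92 and the adjusted p 0.101 (limma), so the call also depended on the floor.

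Dlk1 was the called gene that rose. It encodes a transmembrane protein related to the Notch ligands and is an imprinted gene, expressed from the paternal copy. Intensities were 3592 to 4847 (median 4144) on days 7-8, against 1404 to 2546 (median 2023) on days 5-6. All 6 later arrays lay above all 6 earlier ones, with means of 4200.2 ± 441 on days 7-8 and 2006 ± 468 on days 5-6 (SD, n = 6 each). The log2 change was 1.09 ± 0.16 (limma, adjusted p = 0.034), or 2.13-fold, and the adjusted p in the 52-array fit was 1.1e-05. Means by time were 1252 at 4.5 d, 2252 at 5.5 d, 2829 at 6.5 d, 4686 at 7 d and 3043 at 8.5 d, with the highest of the 9 times at 7 d. The call was lost in 8 of the 12 fits that leave out 1 array, with adjusted p between 0.07 and 0.127. It was also lost with time point as a random block (limma, adjusted p = 0.052) and with the number in the sample codes as a block (0.134). Among the 19 imprinted genes tested, Dlk1 was the single one called (0.0386% of all genes were), and the list's median log2 change was -0.01, against 0.00 over all 7769 genes. Meg3, the maternally expressed RNA gene beside Dlk1, read 5947 to 8592 (median 7173) on days 7-8, against 3243 to 6359 (median 4515) on days 5-6, with a log2 change of 0.62 ± 0.16 (limma, adjusted p = 0.22). It was chosen after its values were seen.

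Tead4, a transcription factor of the TEAD family, which binds the MCAT element of many muscle genes, was called through a dim probe set. That probe set read 41.2 to 138 (median 59.7) on days 7-8, against 129.7 to 296 (median 246) on days 5-6. A single later array, the second at 8 d with 138, reached into the range of the earlier group, and 3 of the 6 later arrays lay below the floor, so its log2 change is a lower bound in size. The change was -1.61 ± 0.24 (limma, adjusted p = 0.041), and the call was lost in 10 of the 12 fits that leave out 1 array, with adjusted p between 0.086 and 0.153. It was also lost with 1 mean per time point on the 12 arrays (limma, adjusted p = 0.07), with time point as a random block (0.108) and with the number in the sample codes as a block (0.152). With the floor set to 32.3 it was lost as well (limma, adjusted p = 0.101). The other 3 probe sets for Tead4 had log2 changes of 0.37, -0.51 and -0.32 (limma, adjusted p of 0.29, 0.23 and 0.59). The brightest of the 4 was the one with the positive change, with means of 1259 on days 7-8 and 977 on days 5-6, so the direction for the gene differs between its probe sets. Tead4 is outside the rule for named genes and was named because it is 1 of the 4 calls.

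**Figure D1:**
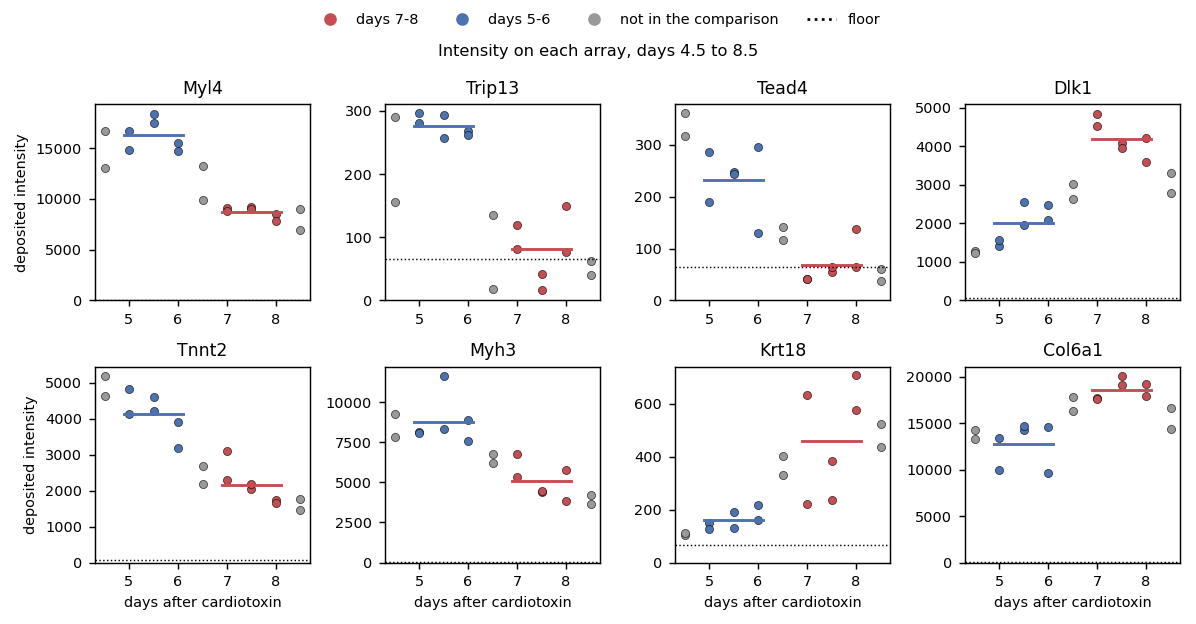
Deposited intensity (linear axis from 0) of 8 genes on each array against days after cardiotoxin, with the arrays of days 7-8 in red, those of days 5-6 in blue and those of 4.5, 6.5 and 8.5 d, outside the comparison, in grey. Horizontal bars are group means (n = 6 each) and the dotted line is the floor of 64.7. Myl4, Trip13 and Dlk1 separate the groups completely, while 1 Tead4 array of 8 d reaches 138.

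Developmental contractile genes had negative changes more often than positive ones. Of 15 tested genes of the embryonic and perinatal sarcomere, 12 had negative and 3 positive log2 changes, with a median of -0.42, against 0.00 over all genes. One member, Myl4, was lower in the first fit, against 0.0257% of all genes. In the 52-array fit 3 were lower, against 0.463% of all genes lower and 0.85% called in either direction. In 4 of the 15 the groups did not overlap, all lower, against 0.669% of all genes lower and 1.31% not overlapping either way. Without both arrays of 5.5 d none of the 15 passed in the first fit, and no probe set did (limma, 1465 at an unadjusted p under 0.05). Without the second 6 d array, the first 7 d array or both 7 d arrays, 2 of the 15 passed. Without both 5 d arrays the 52-array fit left 1 of its 3, Tnnt2.

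Tnnt2 read 1647 to 3109 (median 2107) on days 7-8, against 3191 to 4821 (median 4167) on days 5-6. The groups did not overlap, and the log2 change of -0.95 ± 0.16 passed in the 52-array fit (adjusted p = 0.00015) but not in the first (limma, adjusted p = 0.069). Time means were 4908 at 4.5 d, 4473 at 5 d, 4409.8 at 5.5 d, 3544 at 6 d, 2427 at 6.5 d, 2709 at 7 d, 2107 at 7.5 d, 1688 at 8 d and 1609.6 at 8.5 d. The 6.5 d mean was thus already closer to the later group. Acta2, the smooth muscle actin that young muscle fibres also make for a time, read 4131 to 4843 (median 4401) on days 7-8, against 5436 to 9083 (median 6455) on days 5-6. No array of days 7-8 reached the lowest array of days 5-6, and the log2 change of -0.59 ± 0.13 passed in the 52-array fit only (adjusted p = 0.018, limma on 12 arrays 0.15).

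Myh3, embryonic myosin heavy chain, read 3821 to 6764 (median 4893) on days 7-8, against 7571 to 11646 (median 8226) on days 5-6. Its groups did not overlap either, but its log2 change of -0.80 ± 0.15 passed in neither fit (adjusted p = 0.12 and 0.11, limma). The perinatal heavy chain Myh8 overlapped throughout at 1823 to 2929.8 (median 2697) on days 7-8, against 2096 to 4371 (median 3065) on days 5-6, with a log2 change of -0.23 ± 0.18 (limma, adjusted p = 0.7) and a second, dim probe set at 0.57. Actc1, cardiac actin and the main actin of embryonic muscle, stood at -0.03 with groups that overlapped. Developmental genes therefore differed among themselves from -0.95 for Tnnt2 to 0.22 for Nrap, a protein of growing myofibrils named here after its value was seen.

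The regions just before the start of developmental genes are shown because the TEAD and MyoD families bind short elements there. The 250 bases before the transcription start were taken from RefSeq on build GRCm38.p6 and searched on both strands for CATTCC (MCAT, reading GGAATG on the other strand) and for CAGCTG, an E-box that reads the same on both. Capitals mark these matches, which do not overlap in the sequences printed. The first start of Tnnt2 has 1 MCAT and 2 E-boxes in chr1:135836084-135836333 (plus strand), Acta2 has 1 of each in chr19:34255374-34255623 (minus strand), and Myl4 has neither in chr11:104550413-104550662 (plus strand).
Tnnt2: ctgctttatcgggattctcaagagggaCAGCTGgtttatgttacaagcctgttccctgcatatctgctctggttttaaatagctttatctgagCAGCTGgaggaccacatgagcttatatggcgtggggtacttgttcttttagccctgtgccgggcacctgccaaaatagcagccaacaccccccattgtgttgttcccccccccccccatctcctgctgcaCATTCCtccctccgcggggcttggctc
Acta2: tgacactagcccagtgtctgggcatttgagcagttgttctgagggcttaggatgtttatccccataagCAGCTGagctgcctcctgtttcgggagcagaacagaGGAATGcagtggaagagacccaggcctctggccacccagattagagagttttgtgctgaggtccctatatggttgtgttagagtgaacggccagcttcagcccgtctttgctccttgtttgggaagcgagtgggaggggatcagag
Myl4: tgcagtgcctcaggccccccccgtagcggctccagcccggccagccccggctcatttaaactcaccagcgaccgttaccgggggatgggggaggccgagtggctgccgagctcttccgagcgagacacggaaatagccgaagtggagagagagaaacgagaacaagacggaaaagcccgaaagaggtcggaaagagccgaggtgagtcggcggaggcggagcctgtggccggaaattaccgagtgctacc

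The letters CATTCC stood in 12.6% of all 32851 promoters of this length and CAGCTG in 13%. Over genes, MCAT letters were found before 5 of the 14 developmental sarcomere genes that have a promoter in the table (Acta2, Ankrd1, Mybph, Tnnc1 and Tnnt2), and before 838 of 6212 tested genes (13.5%). E-box letters were also found in 5 of the 14 and in 14.1% of the tested genes. In the same window Myh3, Actc1, Dlk1 and the second start of Tnnt2 had neither element, and Trip13 had 1 MCAT. A match is a description and not a binding site, and Myl4, which has the lowest adjusted p of the 4 calls, has none in this window.

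No adult fast muscle gene passed. Of 21 tested, 17 had positive log2 changes and none passed in either fit (limma, 1 lower at an unadjusted p under 0.05, which 11.4% of all genes reached, 5.53% higher and 5.9% lower), with a median of 0.11. Myh1, the fast IIx heavy chain, read 20336 to 37348 (median 29972) on days 7-8, against 15738 to 27216 (median 22966) on days 5-6, with a log2 change of 0.36 ± 0.17 (limma, adjusted p = 0.47). Myh4, the fast IIb heavy chain, read 11194 to 37879 (median 13317) on days 7-8, against 8402 to 33746 (median 12181) on days 5-6, and its log2 change was 0.06 ± 0.38, with a second, dimmer probe set at -0.49. Acta1, adult skeletal actin, ranged most widely of these, at 5245 to 34132 (median 19013) on days 7-8, against 3130.2 to 36818 (median 13766) on days 5-6. Both groups thus held arrays with little and arrays with much Acta1, and its log2 change of 0.43 ± 0.58 is smaller than its standard error. Myh2, the fast IIa chain, was above the floor on 2 of 6 arrays of days 7-8 and 1 of 6 of days 5-6.

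Slow muscle genes differed widely between single arrays. Myh7, the slow heavy chain, read 6574 on the second 7 d array against 793 on the first, and 5856 and 4556 on the 5.5 d arrays, while the other 8 arrays lay at 1795 or below. Of 9 slow genes tested 6 had negative changes, with a median of -0.40, and none passed in either fit (limma, 5 at an unadjusted p under 0.05, 4 of them lower, against 5.9% of all genes). The mean log2 difference of the list from the 12-array mean was 0.74 on the second 7 d array and -0.59 on the first, which is nearly the whole range of the 12 arrays. Atp2a2, the slow calcium pump of the sarcoplasmic reticulum, had groups that did not overlap at 1497 to 2328 (median 1918) on days 7-8, against 2605 to 4028 (median 2888) on days 5-6, with a log2 change of -0.65 ± 0.15 (limma, adjusted p = 0.15). It was chosen after its values were seen.

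The myogenic regulators gave no call among 21 tested (limma, 4 at an unadjusted p under 0.05, against 11.4% of all genes), with a median of -0.02. Myod1, the factor that commits cells to muscle, read 2451 to 3962 (median 3322) on days 7-8, against 2271 to 3892 (median 3512) on days 5-6, and the 2 groups covered nearly the same range. Its log2 change was -0.01 ± 0.15. Myog, which drives fusion and differentiation, had -0.19 ± 0.17, and Myf6 had -0.02 ± 0.19. Myf5, an early regulator of myoblasts, read 94.1 to 232 (median 179.6) on days 7-8, against 154 to 385 (median 309.7) on days 5-6, with -0.78 ± 0.25 (limma, adjusted p = 0.28). Snai2, a transcription factor also called Slug, stood at 0.04.

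Of 15 genes of muscle cell fusion and adhesion 10 had negative changes. Cdh2, N-cadherin, read 235 to 347 (median 282) on days 7-8, against 333 to 569 (median 486) on days 5-6, and its log2 change of -0.70 ± 0.15 passed in the 52-array fit only (adjusted p = 0.018). It was the 1 of the 15 that did, against 0.463% of all genes lower, and the list's median was -0.09. Erbb3, a neuregulin receptor of muscle and Schwann cells, read 673 to 1354 (median 826) on days 7-8, against 1110.1 to 1925 (median 1325) on days 5-6, and its change of -0.64 ± 0.18 passed in that fit only (adjusted p = 0.033). Fgfr4, the fibroblast growth factor receptor of differentiating myoblasts, read 159 to 312 (median 257) on days 7-8, against 366 to 568 (median 487) on days 5-6, with no overlap, and its change of -0.96 ± 0.17 had an adjusted p of 0.0023 in the 52-array fit and 0.069 in the first (limma).

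The acetylcholine receptor is known to exchange its fetal gamma subunit (Chrng) for the adult epsilon subunit (Chrne) as fibres mature and are innervated. Chrng read 1113 to 1592 (median 1229.7) on days 7-8, against 1374 to 2528 (median 1973) on days 5-6, with a log2 change of -0.64 ± 0.15 (limma, adjusted p = 0.16). Chrne read 503 to 1476 (median 882) on days 7-8, against 307 to 726 (median 588) on days 5-6, with a log2 change of 0.72 ± 0.30 (limma, adjusted p = 0.41). The signs are opposite and neither gene passed in either fit. Both were chosen after their values were seen, and among the 16 synapse genes the median was 0.02.

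Krt8 and Krt18 had the largest rises among the list members that passed, both in the 52-array fit only. These are the paired keratins of simple epithelia, which in muscle lie at the costameres, where fibres are anchored to their membrane. Krt8 read 320.0 to 956 (median 659) on days 7-8, against 109 to 341 (median 222) on days 5-6, with a log2 change of 1.62 ± 0.33 (adjusted p = 0.0023 in the 52-array fit and 0.15 in the first, limma). Krt18 read 220.5 to 709 (median 481) on days 7-8, against 128 to 216 (median 155) on days 5-6, with 1.38 ± 0.30 (adjusted p = 0.0025 and 0.15). The groups did not overlap for Krt18 and overlapped slightly for Krt8, and both genes varied widely among the 6 arrays of days 7-8. No other of the 24 genes of the dystrophin complex and costamere passed in either fit, so that 2 of 24 were higher in the 52-array fit, against 0.386% of all genes, and the list's median was 0.05.

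Kcne1l, an accessory subunit of potassium channels, had the largest rise among the named genes, again in the 52-array fit only. It read 78.2 to 562 (median 477) on days 7-8, against 41.8 to 83.8 (median 62.3) on days 5-6. On 5 of the 6 later arrays it lay at 409 or above, but the second 7.5 d array stood at 78.2, within the earlier range. Without that array Kcne1l also passed in the first fit (limma, adjusted p = 3.7e-07). That fit drops the array that goes against the rise, so its p-value is no added support. In no other fit that left out 1 array did Kcne1l pass. Since 3 of the 6 earlier arrays lay below the floor, the log2 change of 2.39 ± 0.40 is a lower bound (adjusted p = 1.1e-05 in the 52-array fit, 0.069 in limma on 12 arrays). At 6.5 d the mean was 329 and at 8.5 d 615.

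Among 35 collagen and basement membrane genes, 25 had positive changes with a median of 0.15, and in the 52-array fit 3 were higher (0.386% of all genes were) and 1 was lower. The groups did not overlap in 4 of the 35, all higher, against 0.644% of all genes. Col6a1 and Col6a2 encode chains of collagen VI, the beaded microfibril around fibres. Col6a1 read 17584 to 20103 (median 18520.0) on days 7-8, against 9620.3 to 14748 (median 13844) on days 5-6, and its log2 change of 0.56 ± 0.13 (adjusted p = 0.0046 in the 52-array fit) was matched by its second probe set at 0.55. Col6a2 read 11746 to 13807 (median 13152) on days 7-8, against 3214 to 11284 (median 7293) on days 5-6, with 0.97 ± 0.26 (adjusted p = 0.013). For both, the later arrays formed a narrow band above all earlier ones. Both passed in the 52-array fit only. So did Col15a1, a collagen of the basement membrane zone, at 1981 to 3321 (median 2811) on days 7-8, against 1267 to 1876 (median 1646) on days 5-6, with a change of 0.70 ± 0.15. Without both 5 d arrays none of the 35 passed in that fit, with adjusted p of 0.057 for Col6a1, 0.18 for Col6a2 and 0.055 for Col15a1.

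Col1a1, the main chain of type I collagen, read 22606 to 41074 (median 25848) on days 7-8, against 15658 to 38962 (median 22605) on days 5-6, with a log2 change of 0.28 ± 0.24 (limma, adjusted p = 0.73), and a second probe set at -0.06. Postn, periostin of the provisional matrix, had -0.16 ± 0.17. Lox, the enzyme that cross-links collagen, was the member that fell, in the 52-array fit only, at 2515 to 5628 (median 2897) on days 7-8, against 3777 to 7764 (median 5501) on days 5-6, with a change of -0.75 ± 0.23 (adjusted p = 0.0055). Its second probe set stood at -0.10. Other matrix genes that rose in that fit only were Matn4, an adaptor of the matrilin family, at 778 to 1248 (median 934) on days 7-8, against 308 to 630.2 (median 407) on days 5-6, with a log2 change of 1.13 ± 0.19, and Ltbp4. Ltbp4, which holds latent TGF-beta in the matrix, read 3729.6 to 5795 (median 4779) on days 7-8, against 1443 to 3335 (median 2619) on days 5-6, with 0.99 ± 0.22. Neither overlapped between groups. Tnxb, tenascin X, rose by 0.67 ± 0.22 in that fit with groups that overlapped, and Ccn2, a matricellular growth factor binder, fell in it with a log2 change of -1.04 ± 0.47, reading 648 to 1792 (median 1138) on days 7-8, against 779.8 to 4615 (median 3214) on days 5-6, a wide spread in the earlier group. Without both 5 d arrays its change in that fit was -0.54 (adjusted p = 0.64), without both 5.5 d arrays the adjusted p was 0.11, and its mean of 796 at 6 d lay below the days 7-8 mean of 1166. Ccn2 was the 1 of 35 matricellular and small proteoglycan genes called in that fit. Of these 35, 12 reached an unadjusted p under 0.05 in the first fit (limma, 9 higher and 3 lower), with a median of 0.07. Over all genes 11.4% reached it, 5.53% higher and 5.9% lower.

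**Figure D2:**
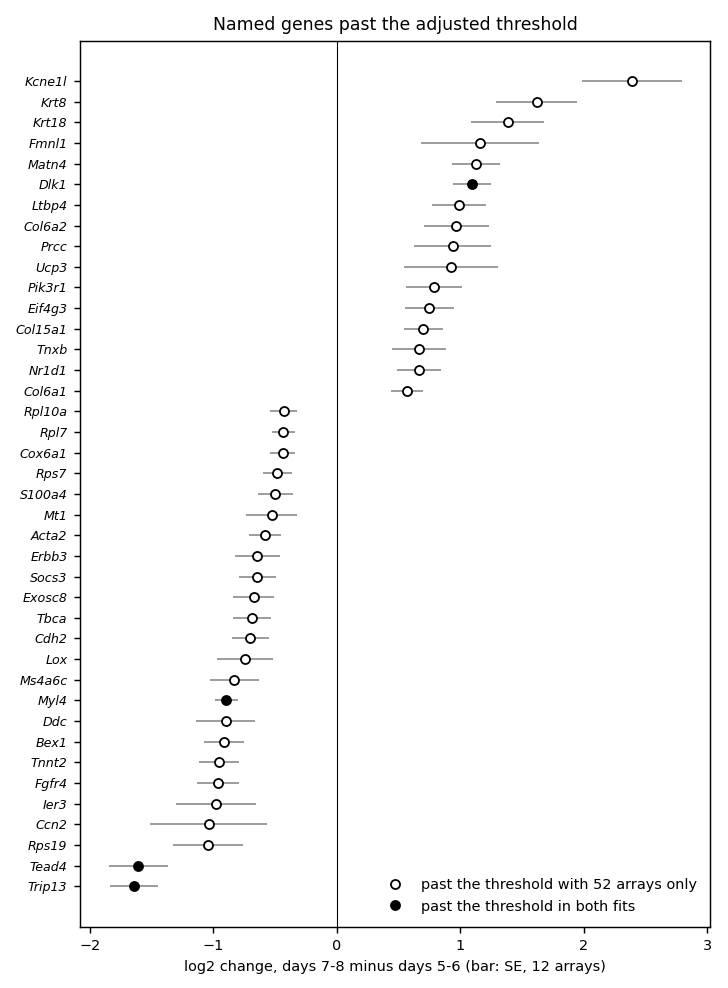
Log2 change, days 7-8 minus days 5-6, of the named genes past the adjusted threshold in limma, with the standard error from the 12-array fit as a bar. Filled points passed in both fits and open points in the 52-array fit only; Dlk1, Myl4, Trip13 and Tead4 are filled, and the open points run from 2.39 for Kcne1l to -1.04 for Rps19.

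Genes of protein synthesis and cell division had mostly negative changes. Of 22 ribosomal protein genes tested, 18 had negative changes, with a median of -0.15, and 5 fell in the 52-array fit and none in the first (limma, 7 at an unadjusted p under 0.05). Of all genes 0.463% were lower in the 52-array fit, and 5.9% were lower at an unadjusted p under 0.05. Rpl7 read 10978 to 13268 (median 12577) on days 7-8, against 13910.1 to 18247 (median 17002) on days 5-6, with no overlap and a log2 change of -0.43 ± 0.10 (adjusted p = 0.031 in the 52-array fit), while a second, dim probe set for Rpl7 stood at 0.05. Rps19 read 2452 to 4606 (median 3547) on days 7-8, against 3691 to 11479 (median 7682) on days 5-6, with -1.04 ± 0.29 and a wide earlier group, and Rps7 and Rpl10a fell in that fit with log2 changes of -0.48 ± 0.12 and -0.43 ± 0.11. A second probe set for Rpl10a fell further, by 1.03 on the log2 scale (adjusted p = 0.00091 in that fit), with groups that did not overlap. The remaining called member was Rpl8. Without both 5 d arrays none of the 22 passed in that fit, and without the second 7 d array 1 did. Many ribosomal protein genes have near-identical processed copies elsewhere in the genome, so which copy a probe set reads is uncertain. Cox6a1, a respiratory chain subunit, fell in that fit with a log2 change of -0.44 ± 0.10, as the 1 of 75 genes of the respiratory chain and citric acid cycle that passed, against 0.463% of all genes lower, while 47 of the 75 had positive changes.

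Of 75 mitotic and DNA replication genes, 58 had negative changes, with a median of -0.24, against 0.00 over all genes. None passed in the first fit (limma, 18 at an unadjusted p under 0.05, 17 of them lower, against 5.9% of all genes), and 1, Bub1 of the spindle checkpoint, was lower in the 52-array fit, against 0.463% of all genes. Bub1 was dim, above the floor on 4 of the 6 arrays of days 7-8. Mki67, the proliferation antigen, read 391 to 610.4 (median 539) on days 7-8, against 423 to 1009 (median 675) on days 5-6, with -0.34 ± 0.20 (limma, adjusted p = 0.57). The score of these genes did not run evenly with time: the 6.5 d mean was -0.14, while both 7 d arrays stood above 0 at 0.08 and 0.06.

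**Figure D3:**
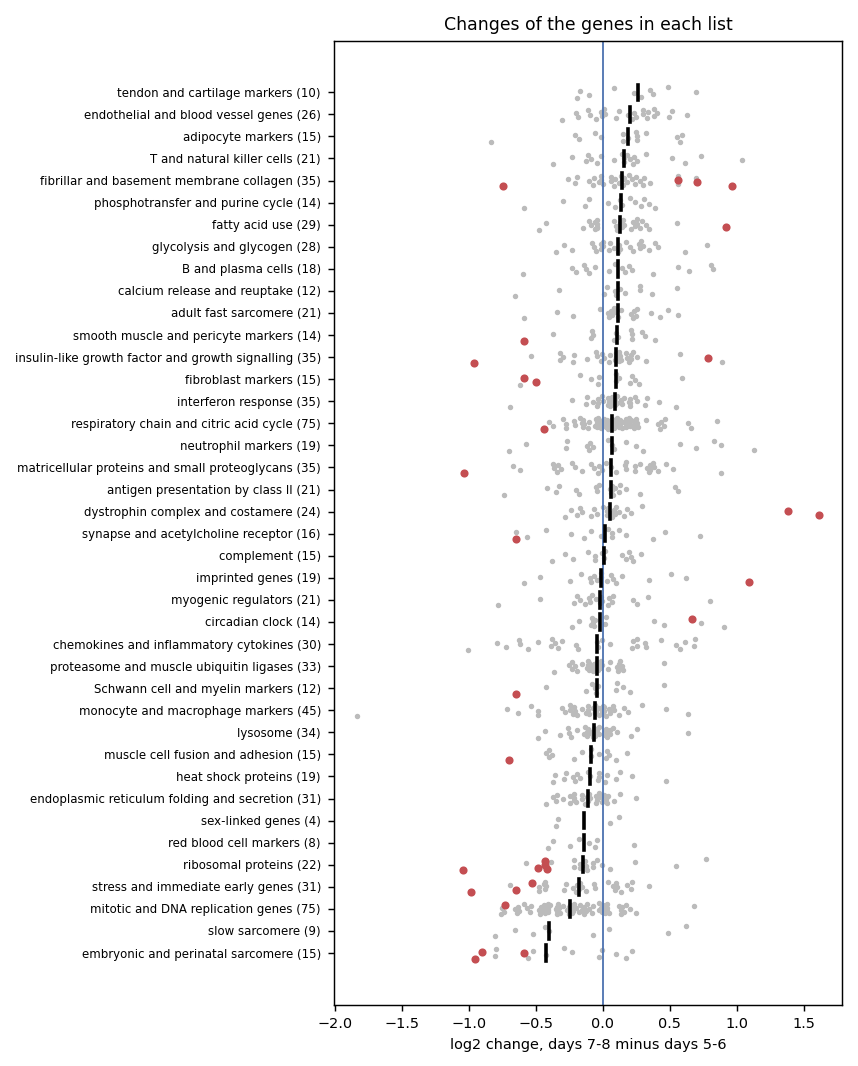
Log2 change, days 7-8 minus days 5-6, of the tested genes of each list, with the number tested in brackets. Grey points did not pass, red points passed in the 52-array fit, black bars are list medians and the blue line is the median over all genes; medians run from -0.42 for the embryonic and perinatal sarcomere to 0.26 for tendon and cartilage markers.

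Markers of other cells were examined on the same arrays. None of the 45 monocyte and macrophage markers passed in either fit (limma, 8 at an unadjusted p under 0.05, against 11.4% of all genes). Of the 45, 30 had negative changes, and the median was -0.06. Their summed intensity ran 183311 to 288470.0 on days 7-8 and 204923 to 279424 on days 5-6. Cd68, a lysosomal protein of macrophages, read 5579.7 to 7849 (median 7642) on days 7-8, against 6183 to 8066 (median 7045) on days 5-6, and its log2 change was -0.00 ± 0.12. Csf1r, their growth factor receptor, had -0.13 ± 0.11. Ms4a6c, a membrane protein found mainly in myeloid cells and not on that list, read 595 to 1333 (median 872) on days 7-8, against 1187 to 1909 (median 1677) on days 5-6, and fell in the 52-array fit only, with a log2 change of -0.83 ± 0.20. Ccl2, the chemokine that draws monocytes, had -0.62 ± 0.25 (limma, adjusted p = 0.39).

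Neutrophil markers set 1 array apart. Their score was 0.91 on the second 7 d array, against -0.40 to 0.08 on the other 11, and their summed intensity ran 10740.2 to 17827 on days 7-8 and 9175 to 17375 on days 5-6. None of the 19 passed in either fit (limma, 4 at an unadjusted p under 0.05, against 11.4% of all genes). The counts of the 52-array fit without that array are given above. None of 26 endothelial, 15 adipocyte and 21 T and natural killer cell genes passed in either fit, with medians of 0.21, 0.19 and 0.16 and 5, 4 and 2 genes at an unadjusted p under 0.05. These 5, 4 and 2 were all higher, against 5.53% of all genes higher at that p. Of 15 fibroblast markers 2 were lower in the 52-array fit, Acta2 and S100a4 (-0.50 ± 0.14), against 0.463% of all genes, and the summed intensity of the list ran 55348 to 68505 on days 7-8 and 55568 to 66435 on days 5-6. Acta2 is also on the embryonic sarcomere and smooth muscle lists. Whether the collagen VI and XV rises of that fit go with a change in fibroblast content was not tested.

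**Figure D4:**
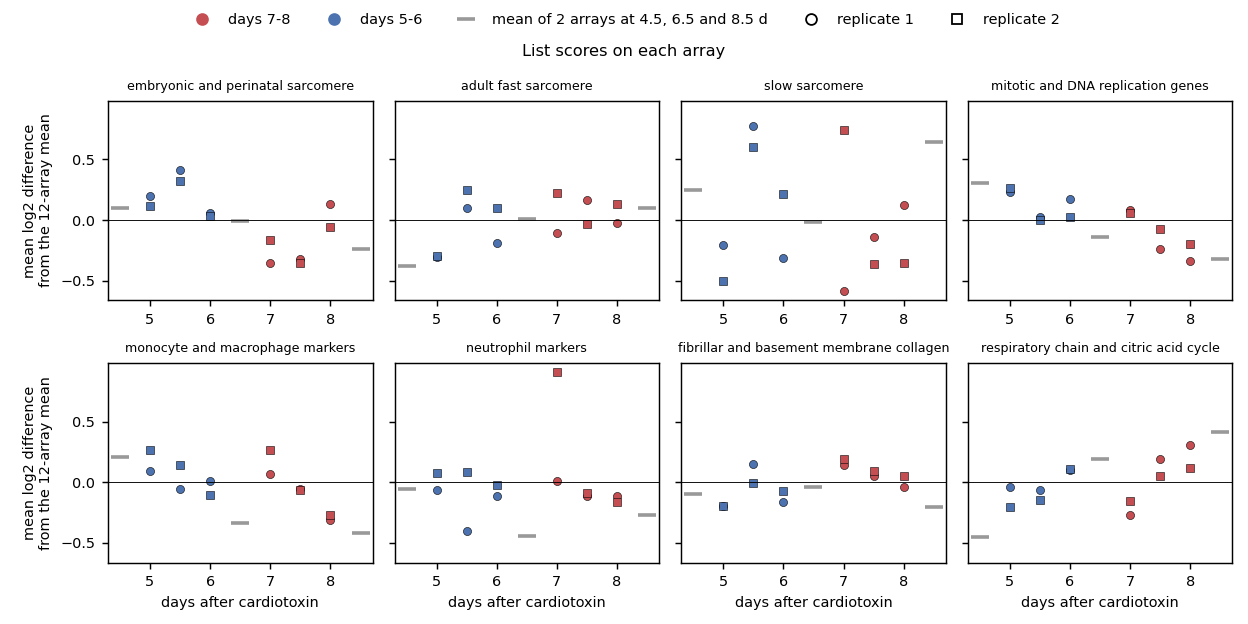
Score of 8 gene lists on each array against days after cardiotoxin, where a score is the mean log2 difference of a list's genes from their mean over the 12 arrays. Circles and squares are the first and second array of a time, red on days 7-8 and blue on days 5-6, and grey bars are means of 2 arrays at 4.5, 6.5 and 8.5 d; the second 7 d array stands alone at 0.91 for neutrophil markers, and the groups overlap in all 8 lists.

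Of 35 genes of insulin-like growth factor and growth signalling, 1 was higher and 1 lower in the 52-array fit, against 0.386% and 0.463% of all genes. Igf1 and Igf2, the insulin-like growth factors of regenerating muscle, had log2 changes of 0.21 ± 0.13 and -0.04 ± 0.13, with a second probe set for Igf1 at -0.19, and Mstn, myostatin, which restrains muscle growth, had 0.14 ± 0.21. Pik3r1, the regulatory subunit of phosphoinositide kinase, read 199.7 to 378 (median 281) on days 7-8, against 90.2 to 242 (median 153) on days 5-6, and rose by 0.79 ± 0.23 in the 52-array fit only. Ucp3, a mitochondrial carrier of muscle, read 616 to 1335 (median 868) on days 7-8, against 189 to 1084 (median 419) on days 5-6, and rose in that fit only by 0.92 ± 0.38, with groups that overlapped. Nr1d1, a repressor of the circadian clock, rose in it by 0.66 ± 0.18, and the hour at which tissue was taken is not in the labels.

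Stress and signalling genes supplied further falls in the 52-array fit only. Of 31 stress and immediate early genes 3 were lower, against 0.463% of all genes, and 21 had negative changes, with a median of -0.18. Without both 5 d arrays none of the 31 passed in that fit, and without the second 7 d array 1 did. Socs3, an inhibitor of cytokine signalling, read 305 to 579 (median 460.2) on days 7-8, against 609.8 to 799.7 (median 692) on days 5-6, with no overlap and a log2 change of -0.65 ± 0.15. Ier3, an early response gene, read 756 to 1458 (median 967) on days 7-8, against 1122 to 4279 (median 1734) on days 5-6, with the highest values on the 5 d arrays, and metallothionein Mt1 had -0.53 ± 0.21. Bex1, a small adaptor protein, read 481 to 864 (median 698) on days 7-8, against 972 to 1573 (median 1249) on days 5-6, with no overlap and -0.91 ± 0.16.

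Of the remaining genes that passed in the 52-array fit only, Fmnl1, Prcc and Eif4g3 rose, and Ddc, Tbca and Exosc8 fell. Fmnl1, a formin, varied between the times of each group, with means of 68.6 at 5 d, 359.7 at 5.5 d, 74.8 at 6 d, 445 at 7 d, 230.0 at 7.5 d and 212 at 8 d, and its difference between the times of days 5-6 passed an F test (limma, adjusted p = 0.018). A second probe set for Fmnl1 had a log2 change of 0.18. That test, with 2 arrays at each time, called 4 probe sets (0.0355%) between the times of days 7-8 and 2 (0.0178%) between those of days 5-6. Exosc8, a subunit of the RNA exosome, did not overlap between groups at 286 to 560.0 (median 395) on days 7-8, against 566 to 779 (median 643) on days 5-6. Ddc, dopa decarboxylase, Tbca, a tubulin folding cofactor, Prcc and Eif4g3, a scaffold of translation initiation, had changes of -0.90 ± 0.24, -0.69 ± 0.15, 0.94 ± 0.31 and 0.75 ± 0.20. A second, dimmer probe set for Prcc had a log2 change of 0.12 and did not pass (limma, adjusted p = 0.93 in the 52-array fit).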

How the data were processed

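The values used were the deposited intensities of the later array version (Av2), 12488 probe sets by 54 arrays, on a linear scale by their range. How the authors made them (software, background correction, scaling) is not given in sources used here. The 2% trimmed mean of the 12 arrays used lay between 800.4 and 800.5, and no further scaling was applied. Intensities were raised to a floor of 64.7 and put on the log2 scale. The 66 control probe sets were left out, and testing required 2 or more of the 12 arrays above the floor. Symbols came from the platform annotation (10833 probe sets with 1 symbol, 396 with several, 1193 with none), checked against the RefSeq gene table of GRCm38.p6. A gene was represented by its brightest probe set, which left 7769 genes.

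limma 3.58.1 in R 4.3.3 was fitted with 1 mean per group (6 arrays each), with moderated variance and Benjamini-Hochberg adjustment at 0.05. Errors after ± are standard errors beside log2 changes and SD beside means. The fit was tested on simulated data, with changes placed in probe sets averaging over 4 times the floor. It recovered 42.2% of 1.5-fold and 84.8% of 2-fold changes, and 5.38% and 5.99% of its calls were false. The simulated noise was normal and independent between arrays, so a spread shared by the arrays of a time was not covered. Each run also planted far more changes than were called in these data, which eases the adjusted threshold. The recovered shares therefore do not give the share of real changes found here. Genes were named by a rule: up to 15 rises and 15 falls called with a mean of at least 4 times the floor in the higher group, up to 4 such members of each of 40 gene lists, and a fixed set of 23 muscle and tissue genes. As few genes were called, the same rule was also applied to the 52-array fit, a choice made after seeing the data. The groups, lists and named genes were chosen with earlier results of these data known, so their patterns are no independent evidence. Spp1, in the fixed set, had no probe set to test. The alternatives were other scalings, floors, filters, variance models and time models, each array or time left out, and the sample code's number or letters as a replicate block. Leaving out the 5 d, the 5.5 d or the second 7 d arrays from the 52-array fit was added after seeing the data. Arrays have no read depth, and their number limits the precision.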

Additional observations from a re-analysis of the deposited data

Results flagged for a closer look

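Of 124 combinations of a named gene and a group of 6 arrays, 9 held an array that stood apart from its group, where chance gives about 1 in 20. On days 7-8, Kcne1l read 78.2 on the second 7.5 d array, below the other 5 at 409 to 562. Tead4 read 138 on the second 8 d array, above the other 5 at 41.2 to 65.2. Myh4 read 37879 on the second 7 d array, above the others at 11194 to 13535. Rpl7 read 10978 on the second 7.5 d array, below the others at 12401 to 13268 (days 7-8), and 13910.1 on the second 6 d array, below the others at 16637 to 18247 (days 5-6). Myh2 read 110.5 on the second 7.5 d array, above the others at 32.3 to 64.9, and 83.6 on the first 5 d array, above the others at 28.0 to 64.6. Arrays were judged on values raised to the floor, which made the other Myh2 arrays nearly level. Flags of such dim genes depend on the floor, and the share given by chance does not apply to them. On days 5-6, Myf5 read 154 on the second 6 d array, below the others at 278 to 385, and Myh3 read 11646 on the first 5.5 d array, above the others at 7571 to 8880.2.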

How the results depend on the processing

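Against 4 called probe sets (1 higher, 3 lower), limma gave 1 (0 higher, 1 lower) with the floor set to 32.3, 9 (3 and 6) with no filter on dim probe sets, 15 (7 and 8) with a variance trend and robust moderation, 2 (0 and 2) against a required change above 1.2-fold, 10 (2 and 8) with 1 mean per time point over the 12 arrays, 82 (36 and 46) over 52 arrays and 2 (0 and 2) with time point as a random block. With the replicate block on the number in the sample codes it gave 2 (0 and 2), and with the block on the letters 5 (2 and 3). The numbers were not shown to pair arrays across groups. Deviations from the group means correlated at 0.01 on average between arrays of the same number and -0.01 between others. Each of these pairs joined an array of days 7-8 to an array of days 5-6. They therefore cannot show whether the 2 arrays of a time share an animal. Within groups the mean correlation was -0.08 between arrays of the same time and -0.227 between arrays of different times. Leaving out 1 array gave 2 to 7 calls (0 to 3 higher, 2 to 4 lower). There were 7 without the second 6 d array, and 2 without the second 5 d, the second 5.5 d, the first 6 d, the second 7 d or the first 8 d array. Without both arrays of a time the counts were 2 (0 higher) for 5 d, 0 (0 and 0) for 5.5 d with 1465 at an unadjusted p under 0.05, 6 (3 higher) for 6 d and 5 (2 higher) for 7 d. Added after seeing the data, the fit over 52 arrays called 19 (10 and 9) without both 5 d arrays, 138 (75 and 63) without both 5.5 d arrays and 56 (27 and 29) with the second 7 d array left out; the cause was not tested. Of 32 alternative settings, Myl4 passed in 31, Trip13 in 29, Dlk1 in 15 and Tead4 in 10, and other probe sets reversed Myl4 (0.15) and Tead4 (0.37). Dlk1 passed without the first 5 d, first 5.5 d, second 6 d or second 8 d array, and Tead4 without the second 6 d or second 8 d array. Of 2002 changes of single genes under alternatives, 1848 kept sign and call and 55 turned the sign of a change called in neither setting, 5 of them from another probe set (Col1a1, Igf1, Myh4, Myh8 and Rpl7). Dim genes are limited by the floor.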

Other observations

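In the 52-array fit 1 gene was called in each of the lists for fatty acid use (Ucp3, higher, of 29), smooth muscle and pericytes (Acta2, lower, of 14), Schwann cells and myelin (Erbb3, lower, of 12), the synapse (Erbb3, lower, of 16) and the circadian clock (Nr1d1, higher, of 14), against 0.386% of all genes higher and 0.463% lower. None of their members was called in the first fit (limma, 3 to 6 members of each list at an unadjusted p under 0.05, against 11.4% of all genes). The following lists held no gene past the threshold in either fit: calcium release and reuptake, glycolysis and glycogen, phosphotransfer and purine cycle, chemokines and inflammatory cytokines, B and plasma cells, class II antigen presentation, interferon response, complement, lysosome, red blood cells, tendon and cartilage, endoplasmic reticulum folding, proteasome and ubiquitin ligases, heat shock proteins and sex-linked genes. Their medians ran from -0.14 for red blood cell markers to 0.26 for tendon and cartilage markers. In the first fit they held between 0 and 10 genes at an unadjusted p under 0.05, against 11.4% of all genes.

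Itga5, the alpha chain of the fibronectin receptor, read 513 and 444 at 7 d, 427 and 432 at 7.5 d, and 69.0 and 396 at 8 d. On days 5-6 the 5 d arrays gave 40.1 and 54.9, those of 5.5 d gave 644 and 591, and those of 6 d gave 26.3 and 43.9. The 4 arrays of 5 and 6 d thus lay below the floor while both arrays of 5.5 d lay above every array of days 7-8. It was chosen after the values were seen, as the probe set with the largest spread within the groups among those with 1 symbol and a mean of at least 4 times the floor. Heat shock protein scores were -0.41 and -0.35 on the 7 d arrays, against 0.08 to 0.25 on the arrays of 7.5 and 8 d and -0.09 to 0.13 on those of days 5-6.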
